A study of Mus musculus with 12 samples.

Results

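Fibro/adipogenic progenitors (FAPs) are resident connective tissue progenitors of skeletal muscle, which carry the receptor PDGFRα and can become fibroblasts or adipocytes. The effect of the growth factor PDGF-AA on these cells was measured as the difference between all 6 arrays of cells given PDGF-AA and all 6 arrays of cells not given it, which are the 12 Affymetrix Mouse Gene 1.0 ST arrays of the series. The fit held the antisense oligonucleotide (AMO) as a factor and the replicate number as a block. It was made over the 21789 of 35556 transcript clusters, the array's units of measurement, to which the platform annotation gives exactly 1 gene symbol.

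The cells came from uninjured hindlimbs of wild-type male C57Bl/6 mice aged 8 to 12 weeks, and each replicate pooled cells of 2 mice. All 6 groups were transfected with 10 µM of an AMO for 48 hours and then again for another 48 hours, and the PDGF-AA was present during the second period only. The 3 groups with PDGF-AA received 50 uM, as the labels give it, with pA AMOs, 5'ss AMO or control AMO, and the 3 groups without it received 0 uM with the same AMOs, 2 arrays each. The pA AMOs and the 5'ss AMO are the study's reagents directed at intronic polyadenylation of Pdgfra transcripts, the subject of the series' title, so 8 of the 12 arrays carry a treatment aimed at the receptor of this ligand. Every group, with or without PDGF-AA, had been transfected, and no untransfected cells were analysed here.

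PDGF-AA is a dimeric ligand that activates PDGFRα, a receptor tyrosine kinase. The activated receptor signals through the RAS and MAP kinase cascade, through PI3 kinase and through phospholipase C gamma. MAP kinase signalling induces immediate early genes quickly and then its own inhibitors, such as the Sprouty proteins. In muscle, PDGFRα signalling is known to promote the growth of FAPs and their production of matrix.

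Values are log2 expression values from the robust multi-array average (RMA). Array medians lay between 6.04 and 6.23, and the 12 arrays correlated with each other at 0.9882 to 0.9975. The FAP and fibroblast markers had a median level of 9.94 over 15 measured genes. Of them, Pdgfra, Vim, Gsn, Cd34 and Dpt were bright, with medians in cells with PDGF-AA of 12.8, 13.4, 12.8, 11.7 and 11.1, against 12.8, 13.3, 12.9, 11.6 and 11.2 in cells without it. Others were dimmer, such as Dpp4 at 7.39 to 8.70 with PDGF-AA and 7.32 to 7.96 without it. The endothelial list had a median level of 5.74 over its 11 measured genes and the macrophage and leukocyte list 5.58 over 11, both below the median of 6.70 over all clusters. The mean level of the endothelial list was 6.10 to 6.22 with PDGF-AA and 6.02 to 6.18 without it, and that of the macrophage and leukocyte list 5.59 to 5.80 with PDGF-AA and 5.65 to 5.79 without it. Of the endothelial genes, Pecam1 lay at 5.46 to 5.88 with PDGF-AA and 5.36 to 5.77 without it. Tek was brighter, at 8.76 to 9.26 with PDGF-AA and 8.51 to 8.90 without it, and was higher in 6 of 6 pairs, by 0.16 ± 0.062. Emcn was lower in 6 of 6 pairs, by 0.19 ± 0.047, at levels of 4.21 to 4.60 on all 12 arrays. The 11 leukocyte genes had no shared direction, with 5 higher, 6 lower and a median change of -0.021. Of them, Ptprc lay at 4.89 to 5.35 with PDGF-AA and 4.75 to 5.09 without it. It was higher in 5 of 6 pairs, by 0.17 ± 0.080. Cd14, Fcer1g and Cd68 were lower in 6 of 6 pairs, by 0.26 ± 0.053, 0.18 ± 0.045 and 0.16 ± 0.059. Over all clusters, 1.68% were higher and 2.30% lower in 6 of 6 pairs. Only in Cd14 of these 11 genes did the groups not overlap, at 6.55 to 6.67 with PDGF-AA and 6.80 to 7.06 without it. Myogenic genes were measured at a median of 6.87 over 19 genes, above the median of 6.70 over all clusters. Among them, Mymk and Chrna1 stood high on 1 array with PDGF-AA, that of 5'ss AMO replicate 1. Mymk, needed for myoblast fusion, was at 8.40 there and at 7.73 to 7.85 on the other 5. Chrna1, an acetylcholine receptor subunit, was at 7.24 there and at 6.63 to 6.82 on the other 5. Without PDGF-AA, Mymk ranged over 7.36 to 8.69 and Chrna1 over 6.20 to 7.51. The part of other cells in the results below was not tested. In these bulk samples a lower level in each cell and a smaller share of expressing cells cannot be told apart.

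No cluster passed an adjusted p of 0.05 for PDGF-AA in limma with Benjamini-Hochberg adjustment, so 0 of 21789 were called (0%). The smallest adjusted p was 0.139 and was shared by 12 clusters. At an unadjusted p under 0.05 there were 1590 clusters (7.30%), of which 778 (3.57%) were higher and 812 (3.73%) lower with PDGF-AA. An even spread of p-values would put 1089.45 clusters in that bin. The changes were small: the median size was 0.0463 on the log2 scale, and 11 clusters (0.0505%) differed by more than 1.5-fold. For this reason the values below are given as measured, and "higher" and "lower" describe the averaged difference and not a call.

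**Figure D1:**
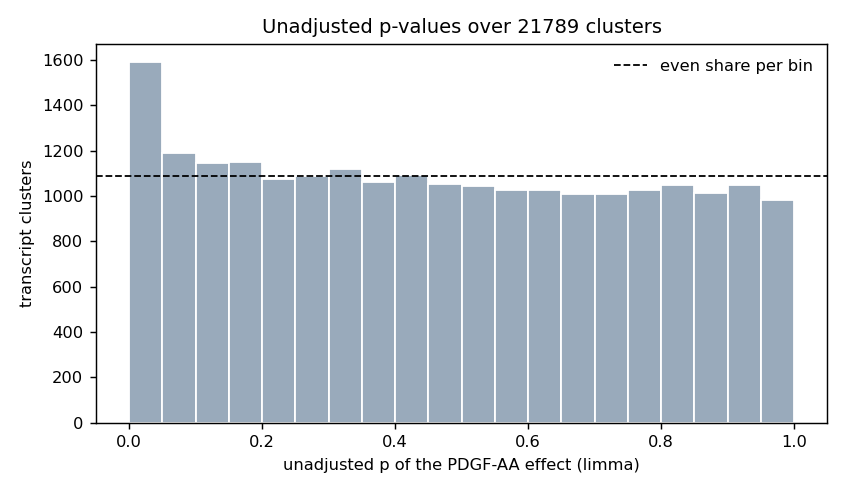
Number of transcript clusters (vertical axis) by unadjusted p of the PDGF-AA effect (horizontal axis, 20 bins), with a dashed line at the even share. The first bin holds 1590 clusters, above the even share of 1089.45.

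A further fit kept the replicate block but gave each of the 6 groups its own mean. Differences between AMOs in the PDGF-AA effect then do not count as spread. In that fit 21 clusters passed an adjusted p of 0.05 in limma (0.0964%), 6 higher (0.0275%) and 15 lower (0.0688%). Without the block that fit called 0, with a smallest adjusted p of 0.294. The 15 lower ones were Comp, Egfl6, Igf1, C7, Fmod, Slc5a3, Sfrp1, Olfml2b, Kng1, Mgp, Gfra1, Gas6, Mmp23, Samd5 and 1 predicted gene. The 6 higher ones were Car9, Slc16a3, Sparcl1, Nt5c1b, Galnt16 and Htr2a. All of these genes are named because of this fit and after their values were seen. In limma with the group means and the block, leaving out any 1 array brought the 21 calls to 0 or 1, except that 24 were called without the 5'ss AMO with PDGF-AA replicate 2 array, 11 of them shared with the 21.

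Taking the arrays 2 by 2, within an AMO and a replicate number, gives 6 differences for each cluster. All 6 had the same sign in 869 clusters (3.99%), of which 367 (1.68%) were higher and 502 (2.30%) lower with PDGF-AA. The 6 arrays with PDGF-AA and the 6 without it did not overlap in 61 clusters (0.280%), 36 higher (0.165%) and 25 lower (0.115%). Over all clusters, the change in the replicate 1 arrays and that in the replicate 2 arrays had a Pearson correlation of 0.230 and a Spearman correlation of 0.183. Between AMOs the changes were nearly uncorrelated. The Pearson correlation was 0.066 for control and pA AMO, 0.034 for control and 5'ss AMO, and -0.045 for pA and 5'ss AMO. The Spearman correlations were -0.021, 0.044 and -0.034, and the sign was the same in 49.0%, 51.3% and 49.5% of clusters. These are descriptions across genes, which are not independent, and the arrays of a replicate number share what that number stands for.

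The genes that were higher with PDGF-AA included many of the enzymes of glycolysis. Of 18 measured members of the list of glycolysis and lactate genes, 18 had a change above 0, against 50.8% of all clusters, and 13 of the 18 (72.2%) had an unadjusted p under 0.05, against 3.57% of all clusters in that direction. The list's median change was 0.21, against 0.00136 over all clusters, and 0 members passed the adjusted threshold, the smallest adjusted p being 0.238. Members of a list vary together and are not independent. All lists were chosen with earlier results of these data known, so their counts beside those of all clusters are a description and not a test.

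Slc16a3, which encodes the lactate exporter MCT4, lay at 9.78 to 10.18 with a median of 10.00 in cells with PDGF-AA, against 9.47 to 9.80 with a median of 9.55 in cells without it. The 4 arrays with control or pA AMO and PDGF-AA, at 9.92 to 10.18, were all above the 6 arrays without PDGF-AA. Of the 2 with 5'ss AMO and PDGF-AA, replicate 1 lay just above them at 9.83 and replicate 2, at 9.78, lay within their range. The difference was 0.38 ± 0.091 (SE, 6 arrays against 6, adjusted p = 0.285 in limma, and 0.0481 with group means and block). Pgk1, phosphoglycerate kinase, had 12.16 to 12.46 with PDGF-AA, against 11.84 to 12.13 without it. Its groups did not overlap, and the difference was 0.30 ± 0.068. The array carries 3 clusters for Pgk1, and 2 of them hold identical values, so they were not counted as separate evidence and near-identical copies of the gene may share their probes.

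Among genes of the earlier steps, Pfkfb3, whose product makes the activator of phosphofructokinase, was higher in 6 of 6 pairs, with a median of 8.44 in cells with PDGF-AA and 8.07 in cells without it. Its difference was 0.31 ± 0.064 (adjusted p = 0.238 in limma). The hexokinase gene Hk2 was higher by 0.36 ± 0.098 and Pdk1, a kinase that turns off pyruvate dehydrogenase, by 0.35 ± 0.082, each in 5 of 6 pairs. Pfkl, the liver-type phosphofructokinase subunit, was higher by 0.30 ± 0.071 in 5 of 6 pairs. Aldoc, an aldolase, had the second-highest change of the list, 0.37 ± 0.13, and was higher in 4 of 6 pairs. At the other end, the hexokinase gene Hk1 differed by 0.016 ± 0.043 and the enolase gene Eno2 by 0.0014 ± 0.078, each higher in 3 of 6 pairs. A second, dimmer cluster of Hk1 differed by 0.18 ± 0.058 and was higher in 5 of 6 pairs, so the clusters of that gene disagree.

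Hypoxia-inducible genes outside glycolysis were also mostly higher. The transcription factor HIF-1 is known to drive both groups; its alpha subunit is made at all times and is destroyed after prolyl hydroxylation by the EGLN enzymes, whose own genes Egln1 and Egln3 are HIF targets. Of 20 measured members, 18 had a change above 0, against 50.8% of all clusters, and 12 (60%) were higher at an unadjusted p under 0.05, against 3.57%. The list median was 0.18. In 5 members all 6 pairs were higher, against 1.68% of all clusters, and in 2, Egln1 and Mif, the groups did not overlap, against 0.165%. Hif1a itself lay at 11.02 to 11.21 with PDGF-AA and 10.91 to 11.12 without it, a difference of 0.076 ± 0.049 with overlapping groups.

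Egln1 had 9.55 to 9.78 in cells with PDGF-AA, with a median of 9.70, against 9.23 to 9.52 in cells without it, with a median of 9.41. The groups did not overlap, and the difference was 0.27 ± 0.061 (adjusted p = 0.280 in limma). Egln3 had 7.92 to 8.32 with PDGF-AA, against 7.37 to 8.02 without it. It was higher in 6 of 6 pairs, by 0.95 at most in the control AMO replicate 2 pair and by 0.14 at least in the 5'ss AMO replicate 2 pair.

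Car9, a membrane carbonic anhydrase widely used as a marker of hypoxia, had the highest change of the list, 0.52 ± 0.15. On the arrays with PDGF-AA it was at 8.14 and 7.97 (pA AMO), 7.34 and 7.66 (5'ss AMO) and 8.13 and 8.20 (control AMO). Without PDGF-AA it was at 7.11 and 7.43 (pA AMO), 7.53 and 7.68 (5'ss AMO) and 7.14 and 7.43 (control AMO). The 4 control and pA AMO arrays with PDGF-AA were thus above all 6 arrays without it, and the 5'ss AMO pairs differed by -0.19 and -0.02. Its adjusted p was 0.384 in limma and 0.0481 with group means and block.

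Higd1a, a hypoxia-induced mitochondrial protein, was higher by 0.38 ± 0.090 in 6 of 6 pairs, and Bnip3, which takes part in the removal of mitochondria, by 0.36 ± 0.083 in 5 of 6. Vegfa, which encodes the angiogenic factor, was higher in 6 of 6 pairs by 0.083 ± 0.039. The lowest members were Lox, the collagen cross-linking enzyme, at -0.046 ± 0.070, and Ndrg1 at -0.034 ± 0.040. The next genes had groups that did not overlap, are outside the lists and were chosen after their values were seen. Ndufa4l2, a hypoxia-induced paralogue of a respiratory chain subunit, lay at 11.83 to 12.12 with PDGF-AA and at 11.39 to 11.79 without it. Fam162a, a mitochondrial protein also induced by hypoxia, lay at 10.70 to 11.06 with PDGF-AA and at 10.20 to 10.66 without it. Cox7a1, a subunit of cytochrome c oxidase, lay at 7.26 to 7.89 with PDGF-AA and at 6.95 to 7.24 without it. Their differences were 0.37 ± 0.073, 0.36 ± 0.073 and 0.39 ± 0.10.

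HIF is known to bind the letters ACGTG, the core of the hypoxia response element. The 100 bases before the gene start (RefSeq, GRCm38.p6) are shown for 4 of these genes whose stretch holds those letters, to show where the core lies. Capitals mark ACGTG, or CACGT where it reads on the other strand, and each sequence runs 5′ to 3′ along the gene's own strand up to the base before the start.
Car9 (chr4:43506926-43507025, plus strand): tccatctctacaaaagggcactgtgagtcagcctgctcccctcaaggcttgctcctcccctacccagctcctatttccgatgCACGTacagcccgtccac
Slc16a3 (chr11:120948967-120949066, plus strand): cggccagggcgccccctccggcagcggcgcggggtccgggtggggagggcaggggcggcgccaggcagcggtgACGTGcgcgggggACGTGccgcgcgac
Fam162a (chr16:36071562-36071661, minus strand): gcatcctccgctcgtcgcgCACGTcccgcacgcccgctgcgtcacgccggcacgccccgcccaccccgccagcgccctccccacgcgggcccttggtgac
Pfkfb3 (chr2:11553930-11554029, minus strand): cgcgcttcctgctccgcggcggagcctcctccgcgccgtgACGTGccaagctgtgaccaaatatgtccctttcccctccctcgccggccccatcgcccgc
Slc16a3 held 2 copies and each of the others 1. In the 250 bases before the start, ACGTG was present on either strand in 8 of 17 promoters of the glycolysis list (47.1%) and in 10 of 17 of the hypoxia list (58.8%), against 16.6% of 27025 promoters of all genes. Both lists hold genes known to be driven by HIF, so a high share was built into them and says nothing of PDGF-AA. ACGTG and CACGT overlap in CACGTG, and base composition was not matched. Among the 21 calls of the group means fit, 2 of 5 promoters of higher genes and 0 of 11 of lower genes held it. A match in these letters is not a binding site, and no factor was measured.

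The 3 AMOs did not show the same size of change in these genes. For the glycolysis list, the median change of the members in the replicate 1 and 2 pairs was 0.38 and 0.16 for pA AMO, 0.047 and -0.020 for 5'ss AMO, and 0.27 and 0.38 for control AMO. For the hypoxia list it was 0.34 and 0.12 for pA AMO, 0.023 and 0.022 for 5'ss AMO, and 0.29 and 0.33 for control AMO. The 2 pairs with 5'ss AMO were the lowest of the 6 in both lists. Whether the effect of PDGF-AA differed between AMOs was tested cluster by cluster: 0 of 21789 passed (0%), with a smallest adjusted p of 0.571 in limma and 1705 (7.83%) at an unadjusted p under 0.05. For Car9 the unadjusted interaction p was 0.000406 and for Slc16a3 0.00206.

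**Figure D2:**
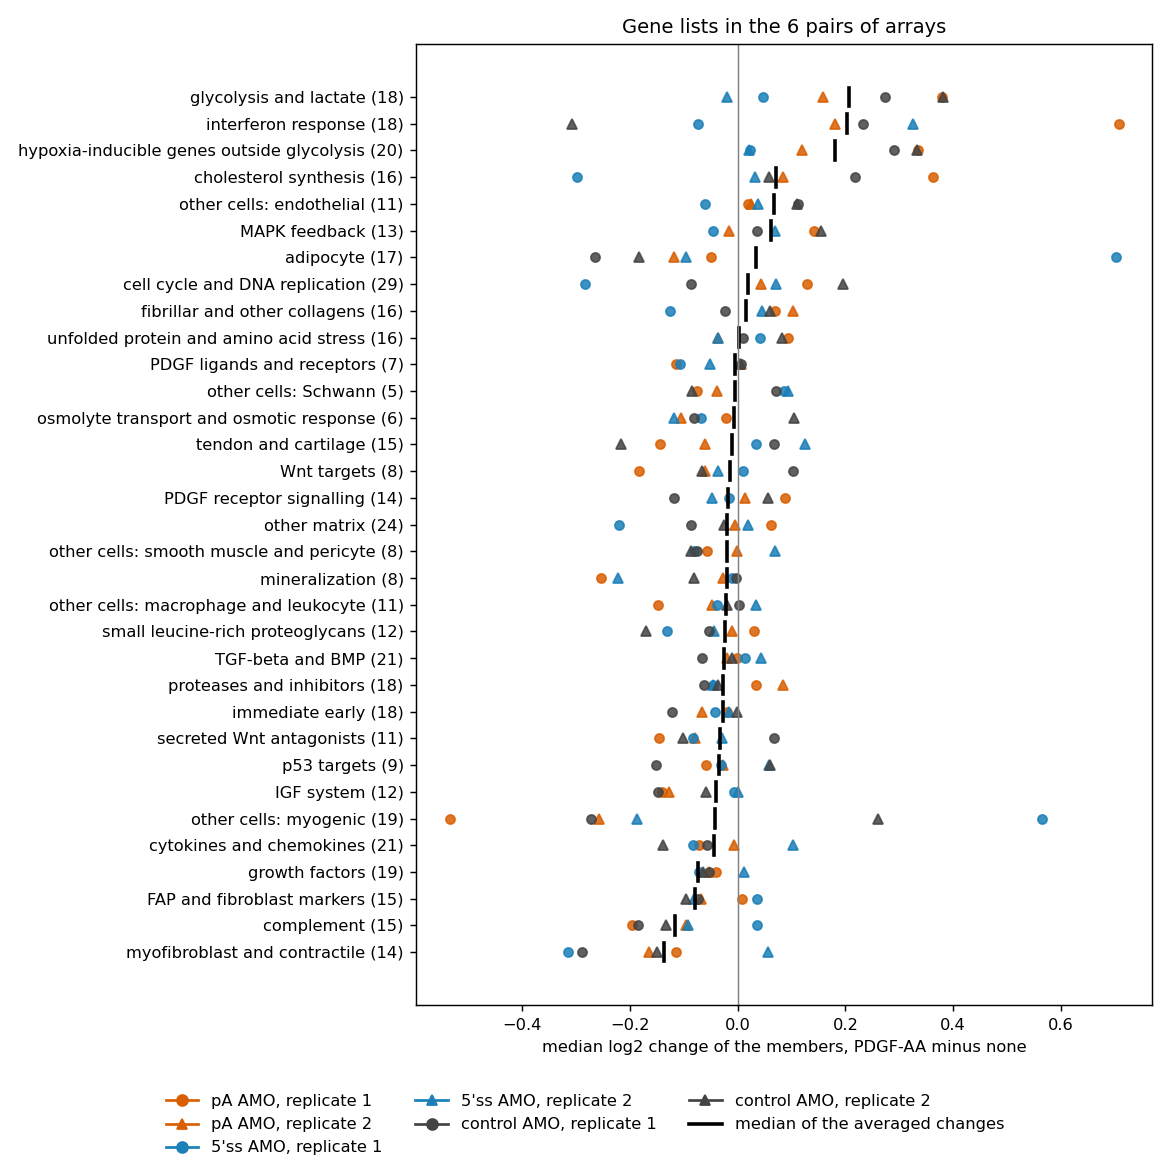
Median log2 change of the measured members of each gene list (PDGF-AA minus none, horizontal axis) in each of the 6 pairs of arrays, with the number of members in brackets; points are pairs, coloured by AMO and shaped by replicate number, and the black bar is the median of the averaged changes. The glycolysis and hypoxia lists lie above 0 in the 4 pairs with control or pA AMO and near 0 in the 2 with 5'ss AMO, and the interferon, adipocyte and myogenic lists are widely spread.

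In the insulin-like growth factor (IGF) system, Igf1 and Igfbp3 were lower with PDGF-AA, while the median change of the 12 measured genes was -0.040. Igf1, the ligand, which acts on muscle fibres and their stem cells, had 8.81 to 9.80 with a median of 9.37 in cells with PDGF-AA, against 9.66 to 10.23 with a median of 9.84 in cells without it. The groups overlapped through the 5'ss AMO replicate 2 array with PDGF-AA, but all 6 pairs were lower, by 0.30 to 0.95. The difference was -0.60 ± 0.095, a 1.52-fold lower level (adjusted p = 0.139 in limma, 0.0481 with group means and block).

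Igfbp3, a circulating IGF-binding protein, was lower in 5 of 6 pairs, by 0.51 ± 0.14. Igfbp7, a secreted protein that binds IGF weakly, had groups that did not overlap, at 13.00 to 13.09 with PDGF-AA and 13.17 to 13.22 without it, although the difference was only -0.13 ± 0.036. Of the 12 measured IGF genes, 4 were lower at an unadjusted p under 0.05, against 3.73% of all clusters in that direction, and 0 were higher. The receptor gene Igf2r, the highest of the list, differed by 0.10 ± 0.049 and Igfbp6 by 0.077 ± 0.061.

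Several genes for secreted matrix proteins were lower with PDGF-AA, while the medians of the matrix lists stayed near 0. Cilp, a cartilage matrix protein that is also made by fibroblasts, had the largest change of the named genes. It had 7.67 to 8.71 with a median of 8.16 in cells with PDGF-AA, against 8.96 to 9.71 with a median of 9.12 in cells without it. The groups did not overlap and the difference was -1.06 ± 0.19, a 2.08-fold lower level (adjusted p = 0.167 in limma, 0.132 with group means and block). The 6 pairs were lower by 0.32 to 2.04, and both ends of that range came from the 5'ss AMO pairs.

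Comp, cartilage oligomeric matrix protein, was at 8.08 and 8.81 (pA AMO), 9.82 and 10.47 (5'ss AMO) and 8.43 and 9.11 (control AMO) in cells given PDGF-AA. In cells without PDGF-AA it was at 9.76 and 9.85 (pA AMO), 9.95 and 10.19 (5'ss AMO) and 9.93 and 10.30 (control AMO). The 4 control and pA AMO arrays with PDGF-AA lay below all 6 arrays without it, by pair differences of 1.04 to 1.68, and the 5'ss AMO pairs differed by -0.13 and 0.28. The averaged difference was -0.88 ± 0.22 (adjusted p = 0.293 in limma, 0.0410 with group means and block). Of the genes the naming rule allows, Comp had the smallest unadjusted interaction p in limma, 9.92e-05, followed by Fbxo48 and a cluster of Dennd4a. None passed adjustment. Dennd4a has 9 clusters, and its brightest had an unadjusted interaction p of 0.587 in limma.

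**Figure D3:**
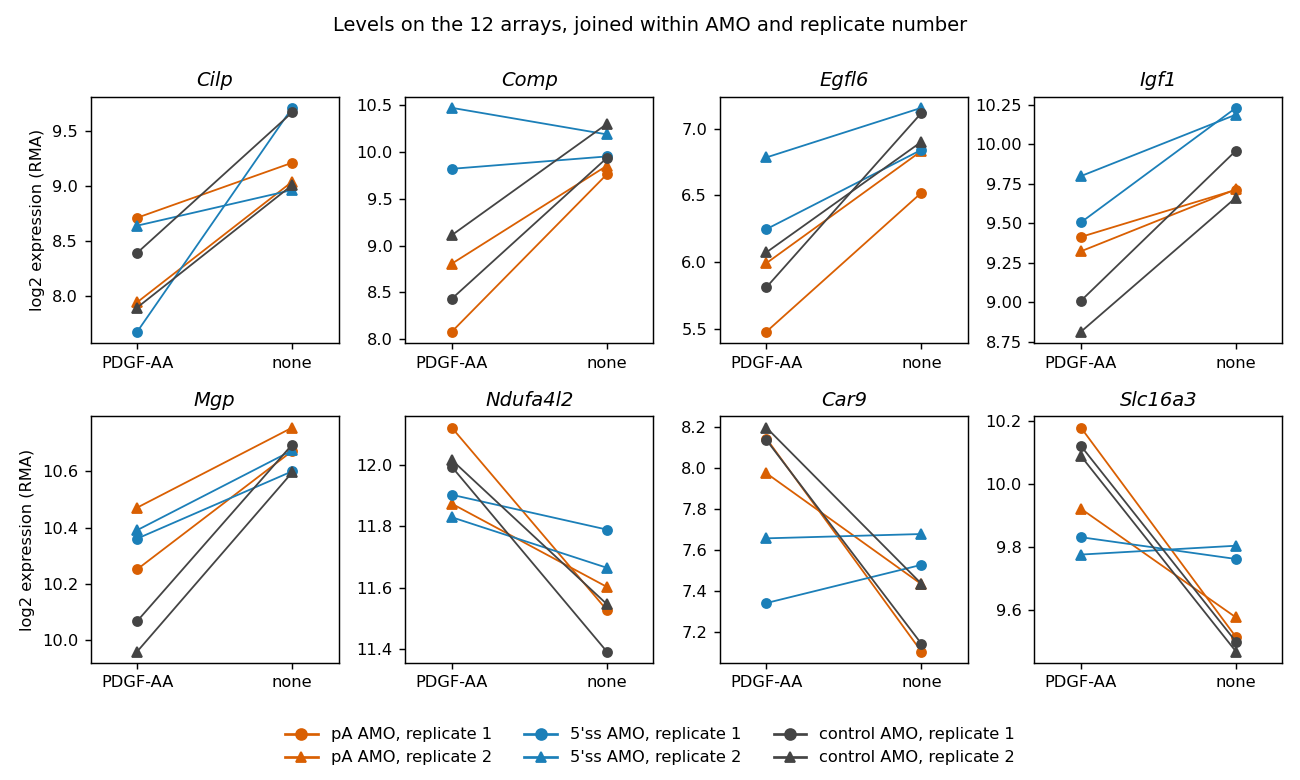
Levels (log2 RMA, vertical axes, each with its own range) of 8 genes on the 12 arrays, with PDGF-AA on the left and without it on the right; lines join arrays of the same AMO and replicate number. Cilp, Egfl6, Igf1 and Mgp were lower and Ndufa4l2 higher with PDGF-AA in all 6 pairs, whereas Comp, Car9 and Slc16a3 have a 5'ss AMO pair that runs the other way.

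Egfl6, a secreted matrix protein with EGF repeats, had 5.48 to 6.78 with PDGF-AA, against 6.52 to 7.16 without it. It was lower in 6 of 6 pairs, by 0.37 to 1.31, and had the smallest p of all clusters, with a difference of -0.83 ± 0.11 (adjusted p = 0.139 in limma, 0.0410 with group means and block). Olfml2b, a secreted olfactomedin-like protein, was lower in 6 of 6 pairs by 0.43 ± 0.058, and Mmp23, a membrane-bound metalloproteinase, by 0.35 ± 0.058. Thbs3, a thrombospondin of the same family as Comp, was lower in 6 of 6 pairs by 0.40 ± 0.062.

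Mgp, an inhibitor of calcification, had groups that did not overlap, at 9.96 to 10.47 with PDGF-AA and 10.60 to 10.76 without it. Its difference was -0.42 ± 0.068 and its 6 pairs were lower by 0.24 to 0.64. Fmod, a small leucine-rich proteoglycan that binds collagen fibrils, was lower by 0.53 ± 0.12 in 5 of 6 pairs, and Podn, another of that family, by 0.24 ± 0.060 in 5 of 6. Ogn, also of that family, was higher by 0.20 ± 0.073 in 5 of 6 pairs. The 12 measured proteoglycan genes had a median change of -0.023, with 1 higher and 3 lower at an unadjusted p under 0.05. Of all clusters, 3.57% were higher and 3.73% lower at that mark.

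The collagens did not share a direction. Of 16 measured collagen genes, 2 were higher and 1 was lower at an unadjusted p under 0.05, against 3.57% and 3.73% of all clusters, and the median change was 0.015. Col14a1, a collagen found beside fibrils, was lower in 6 of 6 pairs by 0.40 ± 0.091. Col8a1, a network-forming collagen, was higher by 0.31 ± 0.085 and Col6a3, of microfibrils, by 0.17 ± 0.067, each in 5 of 6 pairs. Of 24 other matrix genes, 2 were higher and 5 lower at an unadjusted p under 0.05. Sparcl1, a relative of SPARC, was higher in 6 of 6 pairs by 0.37 ± 0.073 (adjusted p = 0.238 in limma, 0.0481 with group means and block). Nid1, a basement membrane protein, was higher by 0.19 ± 0.055 in 5 of 6 pairs. Mfap4, a microfibril-associated protein, was lower by 0.60 ± 0.18 in 5 of 6.

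Myofibroblast and contractile genes had the lowest list median, -0.14 over 14 measured members, with 11 below 0, against 49.2% of all clusters. At an unadjusted p under 0.05, 6 were lower, against 3.73% of all clusters, and 0 were higher. Acta2, which encodes smooth muscle actin and marks myofibroblasts, had 8.20 to 9.77 with PDGF-AA, against 8.98 to 10.37 without it. The groups overlapped: 5 pairs differed by -1.67 to -0.44, and the 5'ss AMO replicate 2 pair was higher by 0.37. The difference was -0.72 ± 0.22 (adjusted p = 0.442 in limma).

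Itga11, a collagen-binding integrin subunit of fibroblasts, was lower in 6 of 6 pairs by 0.30 ± 0.058, and Tpm1, a tropomyosin, by 0.18 ± 0.072. Myl9, a myosin light chain, was lower by 0.31 ± 0.12 in 5 of 6 pairs. Tagln, another actin-binding protein of contractile cells, was lower by 0.33 ± 0.20 with 4 of 6 pairs lower, and Cnn1 differed by 0.075 ± 0.064. Without the 5'ss AMO replicate 1 array with PDGF-AA, the differences were -0.118 for Tagln, -0.178 for Myl9 and -0.113 for Tpm1. Without the 5'ss AMO replicate 2 array with PDGF-AA, that of Tagln was -0.504. In the list of smooth muscle and pericyte markers the mean level lay at 6.886 to 7.056 with PDGF-AA and 6.998 to 7.086 without it. In that list 2 of 8 genes were lower at an unadjusted p under 0.05, against 3.73% of all clusters. The part of these cells in the contractile values was not tested.

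Complement genes were lower by a median of 0.12 over 15 measured members, with 12 below 0, against 49.2% of all clusters. At an unadjusted p under 0.05, 4 were lower, against 3.73% of all clusters, and 1 was higher, against 3.57%. C7, a component of the membrane attack complex, had 9.25 to 10.47 with PDGF-AA, against 10.03 to 10.55 without it. It was lower in 6 of 6 pairs by 0.55 ± 0.099 (adjusted p = 0.167 in limma, 0.0489 with group means and block). C2 was lower by 0.27 ± 0.079 in 5 of 6 pairs and Cfi, a protease that inactivates complement, by 0.26 ± 0.078 in 6 of 6. C1qb, mainly a macrophage gene, was at 4.87 to 5.38 with PDGF-AA and 4.70 to 5.20 without it. Those levels are below the median over all clusters.

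Secreted Wnt antagonists included 4 of 11 genes that were lower and 1 that was higher at an unadjusted p under 0.05, against 3.73% and 3.57% of all clusters. Sfrp1 was at 11.81 to 12.68 with PDGF-AA, against 12.58 to 12.70 without it, and was lower in 5 of 6 pairs by 0.49 ± 0.098. Its 5'ss AMO replicate 2 array with PDGF-AA lay within the range of the arrays without it. Sfrp4 was lower in 6 of 6 pairs by 0.47 ± 0.13, although 2 of those pairs differed by under 0.05. Dkk1 and Sfrp5 were dim, at medians of 5.76 and 5.68 with PDGF-AA and 5.67 and 5.57 without it.

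Of the chemokines, Ccl5 was lower in 6 of 6 pairs by 0.33 ± 0.083 and Ccl8 by 0.29 ± 0.088. Among 19 growth factor genes, Gas6, the ligand of the TAM receptors, was lower by 0.36 ± 0.082 in 5 of 6 pairs (adjusted p = 0.280 in limma, 0.0481 with group means and block), and Ereg, an EGF family ligand, by 0.29 ± 0.14 in 5 of 6. Without the control AMO replicate 1 array without PDGF-AA, Ereg differed by -0.181. Kitl, the ligand of KIT, was higher in 6 of 6 pairs by 0.091 ± 0.040. Of 21 TGF-beta and BMP genes, 2 were higher and 4 lower at an unadjusted p under 0.05. The shares over all clusters were 3.57% and 3.73%. Tgfb2 was lower by 0.28 ± 0.092 and Bmp6 higher by 0.23 ± 0.089, each in 5 of 6 pairs.

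Of the 25 clusters that were lower with groups that did not overlap, 4 more are described here, chosen after their values were seen. Gpx3, an extracellular glutathione peroxidase, lay at 11.40 to 11.72 with PDGF-AA and 11.82 to 11.97 without it. Penk, proenkephalin, lay at 8.00 to 8.59 with PDGF-AA and 8.68 to 9.10 without it. Scara5, a ferritin receptor that marks some fibroblasts, lay at 9.57 to 10.05 with PDGF-AA and 10.07 to 10.27 without it. Prokr1, a prokineticin receptor, lay at 6.03 to 6.38 with PDGF-AA and 6.39 to 6.77 without it. Their differences were -0.30 ± 0.049, -0.42 ± 0.077, -0.34 ± 0.082 and -0.38 ± 0.070.

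On the higher side, Adamts1, a protease that cleaves proteoglycans, lay at 10.33 to 10.52 with PDGF-AA and 10.15 to 10.29 without it. Mthfd1l, a mitochondrial enzyme of folate metabolism, lay at 8.3318 to 8.44 with PDGF-AA and 8.00 to 8.3295 without it. Htr2a, a serotonin receptor, lay at 7.81 to 8.20 with PDGF-AA and 7.55 to 7.80 without it, with a difference of 0.30 ± 0.044 that was close in size in all 6 pairs, at 0.23 to 0.45. Slc5a3, the myo-inositol transporter, was among the lower genes, by 0.50 ± 0.082 in 6 of 6 pairs.

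**Figure D4:**
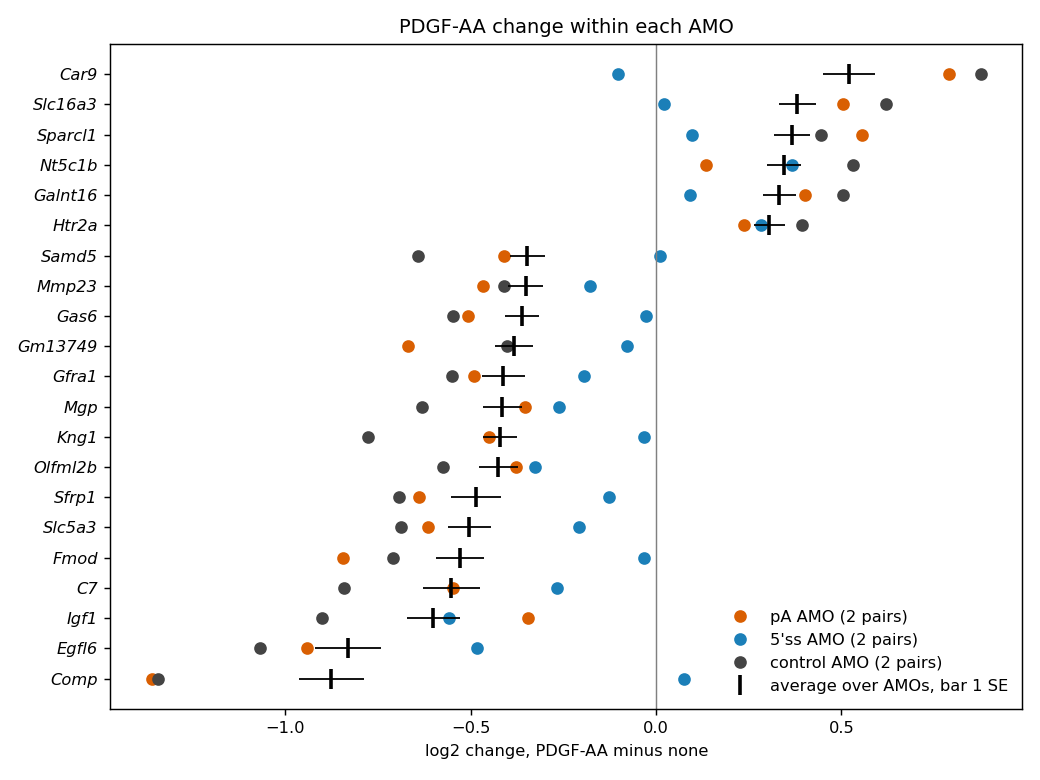
Log2 change with PDGF-AA (horizontal axis) of the 21 clusters called in the fit of group means with replicate block, as the mean of 2 pairs within each AMO (coloured points) and as the average over AMOs (black mark, bar 1 SE). The points for 5'ss AMO lie nearer to 0 than those for control AMO in 21 of 21 clusters. The clusters were chosen on the average of these changes, and control AMO pairs also had larger median changes over all clusters.

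The 21 clusters called in the fit of group means also show how the AMOs compared. The median size of their change was 0.50 for pA AMO, 0.13 for 5'ss AMO and 0.63 for control AMO. The change with 5'ss AMO was smaller than that with control AMO in 21 of 21 and smaller than that with pA AMO in 18 of 21, and had the same sign as the average in 18. These clusters were chosen on the average of the same changes, so the counts are a description, and 13 of the 21 had the same sign in all 6 pairs. Without the 4 arrays with 5'ss AMO, the additive fit in limma called 41 clusters, 12 higher and 29 lower, and 15 of the 21 were among them.

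Of the 7 PDGF genes, 1 was higher and 3 were lower at an unadjusted p under 0.05, against 3.57% and 3.73% of all clusters. The receptor of the ligand, Pdgfra, was at 12.75 to 12.89 in cells with PDGF-AA and 12.72 to 12.92 in cells without it, a difference of -0.0049 ± 0.038. Pdgfrb, the other receptor, was at 10.93 to 11.39 with PDGF-AA and 10.98 to 11.12 without it. Pdgfa, which encodes the chain of the ligand given, was lower in 6 of 6 pairs by 0.12 ± 0.048, with overlapping groups. Pdgfd was higher by 0.22 ± 0.073 in 5 of 6 pairs, Pdgfc lower by 0.16 ± 0.056 in 5 of 6, and Pdgfb differed by 0.024 ± 0.068. Pdgfrl, a receptor-like gene without a kinase domain, was lower by 0.25 ± 0.086 in 5 of 6 pairs. None of the 7 passed adjustment, the smallest of their adjusted p being 0.514 in limma.

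Genes downstream of the receptor gave a mixed picture 48 hours after the ligand was added. Of 13 MAP kinase feedback genes, 2 were higher and 1 was lower at an unadjusted p under 0.05. The shares over all clusters were 3.57% and 3.73%. Spry2, a Sprouty inhibitor of the cascade, was at 7.81 to 8.26 with PDGF-AA, against 7.53 to 7.93 without it, and was higher in 6 of 6 pairs by 0.24 ± 0.059 (adjusted p = 0.293 in limma). Spred1, a related inhibitor, was higher in 6 of 6 pairs by 0.13 ± 0.044, and Dusp5, a phosphatase of ERK, was lower by 0.14 ± 0.048 in 5 of 6.

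Of 18 immediate early genes, 1 was higher and 2 lower at an unadjusted p under 0.05, and the median change was -0.028. Of all clusters, 3.57% were higher and 3.73% lower at that mark. Egr2 was lower in 6 of 6 pairs by 0.17 ± 0.049 and Ier3 higher by 0.21 ± 0.067 in 5 of 6. Among 14 measured genes of the receptor's signalling chain, Map2k1, which encodes the kinase MEK1, was the highest, at 0.12 ± 0.049. The 29 measured cell cycle and replication genes had a median change of 0.019. At an unadjusted p under 0.05, 1 was higher and 1 lower, near the shares of all clusters. Ccnb2 was higher by 0.18 ± 0.075 in 5 of 6 pairs and Rrm1 lower by 0.15 ± 0.064 in 5 of 6. Ccnd1, the cyclin that growth factors induce, was at 9.48 to 10.25 with PDGF-AA, against 9.45 to 9.87 without it. It was higher in 5 of 6 pairs, by 0.24 ± 0.11, and by 0.369 without the 5'ss AMO replicate 1 array with PDGF-AA.

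Interferon-induced, adipocyte and myogenic genes had list medians of both signs among the 6 pairs. For the 19 myogenic genes these ran between -0.53 in the pA AMO replicate 1 pair and 0.56 in the 5'ss AMO replicate 1 pair. The interferon list had a median change of 0.20 over 18 genes. Of these, 15 were above 0 and 3 below, against 50.8% and 49.2% of all clusters. At an unadjusted p under 0.05, 2 were higher and 0 lower, against 3.57% and 3.73% of all clusters. The list's pair medians, however, were 0.71 and 0.18 for pA AMO, -0.074 and 0.32 for 5'ss AMO, and 0.23 and -0.31 for control AMO. Cxcl10, an interferon-induced chemokine, was at 10.61 on the pA AMO replicate 1 array with PDGF-AA and at 6.93 to 8.38 on the other 5 with PDGF-AA, against 7.08 to 7.95 without it. Ifit2 and Mx1, the highest of the list, were higher by 0.60 ± 0.27 in 5 of 6 pairs and by 0.58 ± 0.35 in 4 of 6. Their largest pair differences, 2.04 and 2.15, came from the pA AMO replicate 1 pair. At the other end, Irf7, a regulator of the interferon response, was higher in 3 of 6 pairs and differed by -0.21 ± 0.13. Without the pA AMO replicate 2 array with PDGF-AA, Irf7 differed by -0.087.

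Adipoq, the adipocyte hormone adiponectin, was at 9.31 on the 5'ss AMO replicate 1 array with PDGF-AA and at 5.53 to 8.02 on the other 5, against 5.96 to 7.85 without it. It was higher in 3 of 6 pairs, with a difference of 0.34 ± 0.48 that became -0.25 without that array. The adipocyte list's median change was 0.70 in that pair and -0.27 to -0.050 in the other 5. Of its 17 measured genes, 2 were higher and 0 lower at an unadjusted p under 0.05, against 3.57% and 3.73% of all clusters. Scd1 was higher by 0.29 ± 0.11 in 5 of 6 pairs, and Cebpa lower by 0.21 ± 0.11 in 4 of 6. Pparg, the adipocyte transcription factor, differed by -0.10 ± 0.17. The FAP markers had a median change of -0.080 over 15 genes, with 1 higher and 2 lower at an unadjusted p under 0.05. The shares over all clusters were 3.57% and 3.73%. Dpp4, a marker of a FAP subset, was higher by 0.48 ± 0.15 in 5 of 6 pairs, and Osr1, a transcription factor of muscle connective tissue cells, was lower in 6 of 6 pairs by 0.15 ± 0.050.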

How the data were processed

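The authors deposited log2 values; the submitters' processing notes name RMA and the Affymetrix Expression Console, with versions not given in the sources used here. RMA corrects background, quantile-normalizes the arrays and summarises probes. Of the 35556 clusters, 1621 have several symbols and 12146 are not listed in the platform annotation; neither kind was tested. RefSeq (GRCm38.p6) held 21698 of the 21789 gene identifiers, with 0 symbols changed, and gave the promoters.

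The PDGF-AA effect was fitted with limma 3.58.1 in R 4.3.3 on AMO, PDGF-AA and replicate number (7 residual degrees of freedom), two-sided, with Benjamini-Hochberg adjustment over 21789 clusters at 0.05. Alternatives included a mean for each group (5 residual degrees of freedom). The ± values are standard errors of the fit, with 6 arrays on each side, and the number of arrays limits the precision.

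No label says what a replicate number shares. Taken as departures from the mean of their group, arrays of one number correlated at 0.197 to 0.613 in 15 of 15 pairs of groups, above 0.1, and 12 of 12 arrays correlated best with one of their own number, so the block was kept; this is a hint from the data. Each replicate is said to be a separate pool of mice.

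A gene with several clusters entered its list by the brightest. Of 515 genes on 33 lists, 476 were measured. Members and lists were chosen with earlier results of these data known, so no p is given for a list. The named genes were taken from the PDGF genes, the 2 highest and 2 lowest of each list, and the 3 with the smallest interaction p. Predicted genes and olfactory receptors were left out of the last. Further genes were chosen after their values were seen, in particular those of the group means fit, those with the smallest p or with groups that did not overlap, and members inside the lists. Not every list end is named in the text. Those of the cholesterol synthesis, p53 target, unfolded protein, Wnt target and Schwann lists are not named, nor are some ends of other lists. The script was tested on simulated data. No scanner files were used here.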

Additional observations from a re-analysis of the deposited data

Results flagged for a closer look

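Sets of values within the 6 arrays with PDGF-AA or the 6 without it were checked for 121 genes, most of them named in the text. Of 242 sets, 13 held an array that stood far from the other 5, where chance gives about 1 in 20. Mymk was at 8.40 on the 5'ss AMO replicate 1 array with PDGF-AA, against 7.73 to 7.85 on the other 5, and Chrna1, the acetylcholine receptor subunit, was at 7.24 there, against 6.63 to 6.82. Ccnd1 was at 9.48 on the same array, against 10.00 to 10.25. Thbs3 was at 7.93 with 5'ss AMO replicate 2 and PDGF-AA, against 7.41 to 7.59. On the control AMO replicate 1 array with PDGF-AA, Penk was at 8.00 (others 8.39 to 8.59), Hk1 at 12.05 (others 12.23 to 12.34) and Mmp9 at 6.32 (others 6.52 to 6.60). Without PDGF-AA, the pA AMO replicate 1 array had Thbs3 at 7.76 (others 8.00 to 8.06), Nt5c1b at 4.08 (others 3.74 to 3.86) and Eno2 at 7.22 (others 7.56 to 7.73). Ccnd1 was at 9.45 on the control AMO replicate 2 array without PDGF-AA, against 9.75 to 9.87. Tek was at 9.26 on the control AMO replicate 2 array with PDGF-AA, against 8.76 to 8.91, and Emcn was at 4.60 on the control AMO replicate 2 array without PDGF-AA, against 4.44 to 4.50.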

How the results depend on the processing

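The count of 0 clusters called for PDGF-AA depended on the model: 21 were called with group means and the replicate block, 11 without dim clusters (13073 tested), 67 with trend and robust moderation (20 higher and 47 lower) and 41 without 5'ss AMO. Leaving out each array in turn called 0 to 27, the 27 being without the 5'ss AMO with PDGF-AA replicate 2 array, and 0 without any other. The causes were not tested. Over these 5 settings 111 clusters were called at least once, and Egfl6 and Mmp23 in 5 of 5. With no replicate block, 0 were called (smallest adjusted p 0.462), and the clusters at an unadjusted p under 0.05 numbered 827, against 1590 with it; group means and no replicate block gave 738, and replicate 1 arrays only 615. For the interaction, 1 was called with trend and robust moderation and 0 to 6 when each array was left out, the 6 without that same array; at an unadjusted p under 0.05 there were 485 with no replicate block and 1010 without dim clusters, where fewer were tested, against 1705. The other alternatives (random block, a block for each of the 6 pairs, all clusters, brightest cluster, repeated quantile normalization, median centring, array weights, leaving out control or pA AMO, 1 replicate number only) called 0, at smallest adjusted p of 0.0768 to 1. A set of 121 genes was checked, most of them named in the text, though some named genes were not among them. Of the 121, 115 kept their sign when each array was left out. Pdgfra ranged over -0.016 to 0.012, Pdgfb -0.017 to 0.077, Hk1 0 to 0.037, Eno2 -0.068 to 0.055, Lox -0.089 to 0.025 and Adipoq -0.251 to 0.632. Centring moved the median change of all clusters by -0.0143.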
